A study of Mus musculus with 2 samples.

Results

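Transcript levels of 10 core circadian clock genes were compared between a liver section of 1 AEG-1ΔMAC mouse and a liver section of 1 AEG-1fl/fl mouse by spatial transcriptomics (ST). The genes were chosen by symbol: Arntl, Clock, Npas2, Per1, Per2, Per3, Nr1d1, Nr1d2, Dbp and Bhlhe41, which are 10 of the 19465 genes listed for these libraries. They were chosen with their genotype ratios in these libraries already known, so each ratio below describes the pair of libraries and supports nothing further. AEG-1ΔMAC mice (spelled AEG-1DMAC in the labels) carry floxed alleles of Mtdh, the gene of AEG-1, and Cre recombinase expressed from the Lyz2 locus, which deletes the gene in myeloid cells such as macrophages and neutrophils. AEG-1fl/fl mice carry the floxed alleles without Cre. By the labels both mice were 27 weeks old and had been fed HF/HSD from 7 weeks of age, whereas the methods describe this assay on littermates fed a control diet, so the diet was not settled. Each genotype had 1 mouse and 1 formalin-fixed, paraffin-embedded section, and hepatocytes make up most of the tissue in both. Sex and the hour at which each liver was taken are not given in the sources used here. Genotype, mouse, section and hour of collection therefore cannot be told apart.

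The circadian clock is a feedback loop of transcription that runs in most cells, and in liver it times the expression of many metabolic genes. The proteins of Arntl (BMAL1) and Clock, or of its paralog Npas2, bind E-box elements together and activate the Per, Cry, Nr1d and Dbp genes. PER proteins, with CRY, repress this activation, the REV-ERB receptors encoded by Nr1d1 and Nr1d2 repress Arntl and Npas2 through ROR elements, DBP activates genes through D-box elements, and BHLHE41 (DEC2) competes at E-boxes. Transcript levels of these genes cycle over the day in liver, with Arntl and Npas2 peaking at nearly the opposite time from Nr1d1 and Dbp.

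After filtering, 2140 AEG-1ΔMAC spots with 45453286 unique molecular identifiers (UMIs, each counting 1 captured probe pair) and 2540 AEG-1fl/fl spots with 50322850 UMIs remained. The median spot held 20929.5 and 18285 UMIs, respectively, and 1782 barcodes occurred in both libraries, since barcodes mark positions in a fixed layout. A spot covers several cells, so fewer cells of a type and less RNA per cell cannot be told apart in any value below. Levels are UMIs summed over spots and scaled to the library total (CPM), with exact Poisson 95% intervals, and are given for AEG-1ΔMAC first and AEG-1fl/fl second. Log2 ratios are AEG-1ΔMAC over AEG-1fl/fl with exact conditional binomial 95% intervals. These intervals cover counting error only, and with 1 library per genotype no hypothesis test was made. Levels depend on the probes of a gene, so they were compared between libraries and not between genes. Over the 6933 genes whose mean reached 10 CPM, the median log2 ratio was 0.15, with the 5th percentile at -0.29 and the 95th at 0.54. Mtdh itself had 66.3 and 60.2 CPM, with a log2 ratio of 0.14 (0.07 to 0.21), so the level over whole spots did not check the deletion. Lyz2, from whose locus Cre is expressed, had 25 and 41 UMIs. Cre lies at this locus in AEG-1ΔMAC only, so these UMIs were not used to compare numbers of Cre-expressing cells.

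Some marker lists moved between the sections as well. The 3 zone 3 markers used to rank spots summed to 8543 and 3498 CPM. The 4 hepatocyte markers had a log2 ratio of -0.47 (Alb -0.69, Ttr -0.31, Apoa1 -0.26 and Serpina3k 0.36). The 5 Kupffer cell markers had -0.16 as a sum (574 and 641 CPM), with 2 of the 5 below -0.5. The 2 neutrophil markers S100a8 and S100a9 had -2.61 (2.49 and 15.2 CPM). Stellate cell markers had -0.01, sinusoidal endothelium -0.05 and smooth muscle 0.07. Cholangiocyte markers had 0.24 (0.17 to 0.31), and the 6 zone 1 markers used to rank spots had 0.24 (0.23 to 0.25). None of the markers of these lists was at 0. The part of these shifts in the clock gene values was not tested.

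Of the 10 clock genes, Per1, Per2, Per3, Nr1d1, Nr1d2, Dbp and Bhlhe41 were at least 2-fold higher in the AEG-1ΔMAC library, Npas2 was more than 2-fold lower, Arntl was 1.64-fold lower, and Clock had nearly the same level in both.

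**Figure D1:**
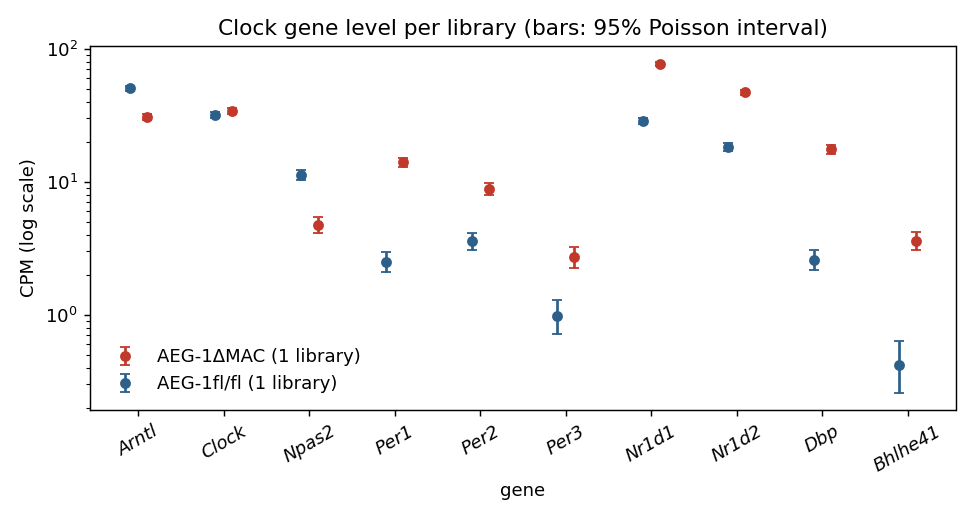
Level of each clock gene in CPM on a log axis, with 1 point per library (AEG-1ΔMAC red, AEG-1fl/fl blue) and bars giving the 95% Poisson interval. The intervals of the libraries lie apart for all genes but Clock, whose points sit at 34.1 and 31.7 CPM.

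Arntl, the common partner of the activating pair (chromosome 7, 113207465 to 113314126, plus strand, GENCODE release M21 on GRCm38, as for all genes here), had 30.7 CPM (29.1 to 32.4) and 50.3 CPM (48.4 to 52.3), from 1397 and 2532 UMIs. Its log2 ratio was -0.71 (-0.81 to -0.62), which ranked 82nd from the lowest of 6933 genes. Clock, which encodes the other partner (chromosome 5, 76209868 to 76304792, minus strand), had 34.1 CPM (32.5 to 35.9) and 31.7 CPM (30.2 to 33.3). The log2 ratio of 0.11 (0.00 to 0.21) was close to the median of all genes, and it changed sign to between -0.04 and -0.02 under 3 other scalings. Npas2, which can take the place of Clock (chromosome 1, 39193731 to 39363236, plus strand), had 4.73 CPM (4.12 to 5.41) and 11.2 CPM (10.3 to 12.2). It was 2.37-fold lower in AEG-1ΔMAC, with a log2 ratio of -1.24 (-1.48 to -1.02). Of the 3 activator genes, Arntl and Npas2 thus had the lower level in AEG-1ΔMAC.

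The Arntl promoter is shown because REV-ERB receptors act on it through ROR elements. Promoter windows of 300 bases, 250 before and 50 after each RefSeq start (GRCm38.p6), were searched on both strands for TAGGTNA (ROR element), CACGTG (E-box), CACGTT (an E-box variant that differs from it in the last letter) and TTATGTAA (D-box). Of 32851 windows of all genes, 8.29% held TAGGTNA, 7.15% CACGTG, 4.68% CACGTT and 0.938% TTATGTAA. Entries were found for 9 of the 10 clock genes, in 13 windows, and Per2 had none. Arntl held 2 matches to TAGGTNA, both near its starts, with the match in capitals.
Arntl chr7:113207495-113207521, plus strand: ggtcggaaagTAGGTTAgtggtgcgac
Arntl chr7:113207531-113207557, plus strand: aggcagaaagTAGGTCAgggacggagg
The windows of Clock, Npas2, Nr1d2 and Dbp held none of these letters. A match describes the window only.

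The Per genes encode the repressors of the loop. Per1 (chromosome 11, 69095217 to 69109960, plus strand) had 14.1 CPM (13.0 to 15.2) and 2.50 CPM (2.09 to 2.98), from 639 and 126 UMIs. This was 5.61-fold higher, a log2 ratio of 2.49 (2.21 to 2.78). Per2 (chromosome 1, 91415982 to 91459324, minus strand) had 8.82 CPM (7.98 to 9.73) and 3.58 CPM (3.07 to 4.14), which was 2.47-fold higher with a log2 ratio of 1.30 (1.05 to 1.56). Per3, whose protein is dispensable for the core rhythm (chromosome 4, 151003652 to 151044665, minus strand), had 2.71 CPM (2.25 to 3.23) and 0.974 CPM (0.720 to 1.29). It rested on 123 and 49 UMIs, with a log2 ratio of 1.47 (0.99 to 1.98). All 3 Per genes had the higher level in AEG-1ΔMAC, and none reached a mean of 10 CPM.

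Of the 2 Per1 windows, the 1 with an E-box is shown, and the other held none. The Per1 stretch lies inside the interval given above for the gene, before a later start. The Per3 window is shown for its pair of D-boxes, a motif in 0.938% of windows.
Per1 chr11:69098733-69098838, plus strand, E-box in capitals: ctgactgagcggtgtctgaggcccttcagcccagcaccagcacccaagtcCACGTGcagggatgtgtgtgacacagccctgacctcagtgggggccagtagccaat
Per3 chr4:151044766-151044915, minus strand, D-boxes in capitals: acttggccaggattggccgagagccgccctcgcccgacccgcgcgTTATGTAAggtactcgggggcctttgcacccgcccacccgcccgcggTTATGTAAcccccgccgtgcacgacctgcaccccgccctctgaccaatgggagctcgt

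Nr1d1 and Nr1d2 encode the REV-ERBα and REV-ERBβ receptors, which repress Arntl and Npas2. Nr1d1 (chromosome 11, 98767932 to 98775333, minus strand) had 76.3 CPM (73.8 to 78.9) and 28.6 CPM (27.1 to 30.1), from 3468 and 1438 UMIs. It was 2.67-fold higher, with a log2 ratio of 1.42 (1.33 to 1.51), the 43rd highest of 6933 genes. Nr1d2 (chromosome 14, 18204054 to 18239127, minus strand) had 47.0 CPM (45.0 to 49.0) and 18.2 CPM (17.1 to 19.4), was 2.58-fold higher with a log2 ratio of 1.37 (1.25 to 1.48), and ranked 45th. The paralogs thus differed between the libraries by nearly the same ratio, and their intervals overlapped. The tail of Nr1d1 overlaps Thra on the other strand. Thra had 9.37 and 10.4 CPM, a log2 ratio of -0.14 (-0.33 to 0.04).

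The Nr1d1 window, shown because Nr1d1 is an E-box gene, held the variant CACGTT, read here from the other strand.
Nr1d1 chr11:98775378-98775455, minus strand, variant in capitals: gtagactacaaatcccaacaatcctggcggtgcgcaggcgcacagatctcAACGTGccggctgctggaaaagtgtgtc

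Dbp encodes the D-box activator through which the loop reaches many output genes. Dbp (chromosome 7, 45705088 to 45710203, plus strand) had 17.5 CPM (16.3 to 18.7) and 2.58 CPM (2.16 to 3.07), from 795 and 130 UMIs. The ratio was 6.77-fold, a log2 ratio of 2.76 (2.49 to 3.04), the 9th highest of 6933 genes. Bhlhe41 (chromosome 6, 145858243 to 145865558, minus strand) had 3.59 CPM (3.06 to 4.18) and 0.417 CPM (0.258 to 0.638), from 163 and 21 UMIs. Its ratio of 8.59-fold, a log2 ratio of 3.10 (2.44 to 3.83), was the highest of the 10 genes, and its interval overlapped those of Dbp and Per1. The Bhlhe41 window is shown for its E-box.
Bhlhe41 chr6:145865559-145865623, minus strand, E-box in capitals: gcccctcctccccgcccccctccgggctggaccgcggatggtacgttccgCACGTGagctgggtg

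With a minimum mean of 10 CPM, 5 of the 10 genes could be counted, and 3 of them (Nr1d1, Nr1d2 and Dbp) were at least 2-fold higher in AEG-1ΔMAC, beside 1.27% of all genes, and 0 were as much lower, beside 0.519%. Dbp passed the minimum narrowly, at a mean of 10.04 CPM, while Per1 at 8.28 CPM and Npas2 at 7.97 CPM lay just under it. With a minimum of 1 CPM all 10 genes entered, and 7 were at least 2-fold higher and 1 lower, beside 1.74% and 1.55% of 11178 genes. Nothing is read from these shares, because the genes were chosen with the same ratios known.

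**Figure D2:**
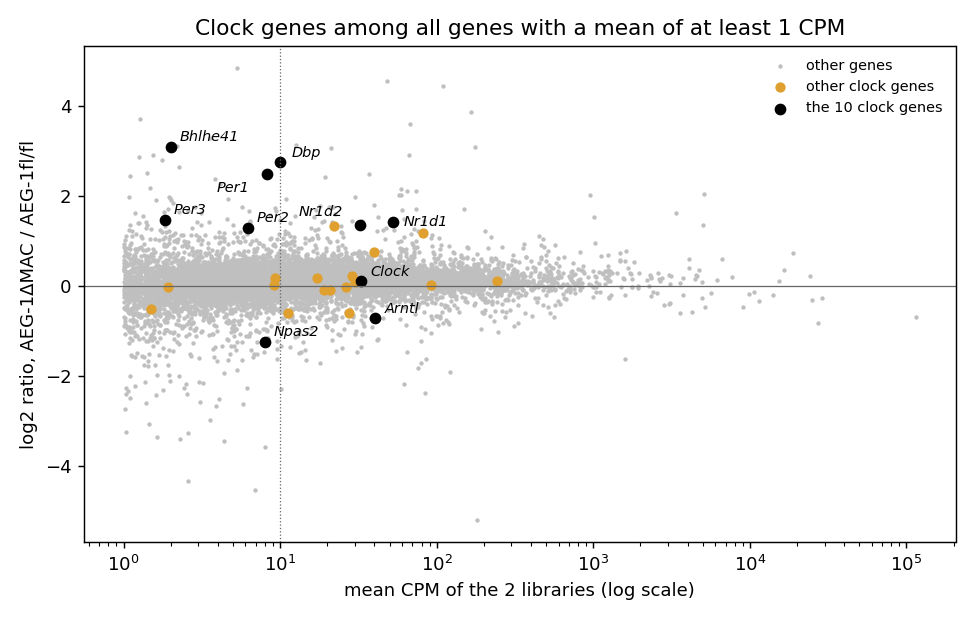
Log2 ratio of AEG-1ΔMAC over AEG-1fl/fl against mean CPM of both libraries on a log axis, for all genes whose mean reached 1 CPM (grey), other clock genes (orange) and the 10 clock genes (black). The dotted line marks 10 CPM, and Dbp, Per1 and Bhlhe41 lie at log2 ratios of 2.76, 2.49 and 3.10.

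Of a list of 20 further clock genes, 19 were in the files and 13 reached 10 CPM, of which 2 were at least 2-fold higher, 0 were as much lower and 11 lay between, beside 1.79% of all genes 2-fold apart in either direction, with a median log2 ratio of 0.08 beside 0.15 over all genes. The higher genes were Tef, a paralog of Dbp, at 31.7 and 12.6 CPM with a log2 ratio of 1.33 (1.20 to 1.47), and Bhlhe40, the paralog of Bhlhe41, at 113.8 and 49.9 CPM with 1.19 (1.12 to 1.26). Hlf, the remaining member of the Dbp family, had a log2 ratio of 0.76 (0.67 to 0.86), and Fbxw11, part of a ubiquitin ligase that acts on PER, had 0.23. At the lower end, the repressor Cry1 and Nfil3, which opposes DBP at D-boxes, both had -0.60, and Btrc, a further ubiquitin ligase gene, had -0.09.

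Among 18 genes known as clock outputs in liver, 12 reached 10 CPM, 1 was at least 2-fold higher and 0 were as much lower, beside 1.27% and 0.519% of all genes, with a median log2 ratio of 0.10 beside 0.15. The higher gene was Alas1, the first enzyme of haem synthesis, at 310.7 and 21.2 CPM with a log2 ratio of 3.87 (3.78 to 3.97). Next came Cyp7a1, the rate-limiting enzyme of bile acid synthesis, at 0.91, Nampt, which makes a precursor of NAD, at 0.63, and Slc45a3 at 0.39. At the lower end were Cdkn1a, a cell cycle inhibitor, at -0.72, the transferrin receptor gene Tfrc at -0.15 and Insig2 at -0.06.

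To describe the ratios along the liver lobule, spots of each library were ranked on zone markers and divided into 3 equal parts. Zone 1 lies around the portal vessels and zone 3 around the central vein. All 10 clock genes lay on the same side as in the whole section in all 3 parts, with Clock at 0.07, 0.06 and 0.18 (0.01 to 0.36), close to the median of all genes. All 7 higher genes had an interval above 0 in every part, and 6 of them were at least 2-fold higher in each. Per2 was the exception, at log2 ratios of 1.66 (1.23 to 2.11) in the zone 1 part, 1.25 in the middle and 0.91 (0.46 to 1.37) in the zone 3 part. At 10 CPM or more and without the zone markers, 69.7% of the 122 genes 2-fold apart over the section were so on the same side in every part, Nr1d1, Nr1d2 and Dbp among them. No such share was taken for genes below 10 CPM. The parts make up the sections whose ratios were known when the genes were chosen, so nothing is read from these counts.

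Dbp had nearly the same log2 ratio in each part, at 2.83, 2.64 and 2.81, and so had Nr1d2, at 1.28, 1.35 and 1.48. Per1 had 2.21, 2.67 and 2.62, and Npas2 had -1.53, -1.22 and -1.06. The low counts of Per3 and Bhlhe41 left wide intervals, with Per3 at 1.89 (0.97 to 2.91) in the zone 1 part and 1.09 (0.30 to 1.92) in the zone 3 part, and Bhlhe41 at 2.67 (1.74 to 3.75) and 4.12 (2.49 to 6.45). The intervals of the zone 1 and zone 3 parts lay apart for 2 genes. No share of all genes with such intervals apart was taken, so nothing is read from this count. Arntl had a log2 ratio of -0.93 (-1.10 to -0.75) in the zone 1 part and -0.51 (-0.67 to -0.35) in the zone 3 part, and Nr1d1 had 1.24 (1.10 to 1.39) and 1.68 (1.51 to 1.85). Over the 6924 genes at 10 CPM or more without the zone markers, the zone 3 minus zone 1 difference in log2 ratio had a median of 0.01. Its 5th percentile was -0.31 and its 95th 0.29, taken without counting error.

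**Figure D3:**
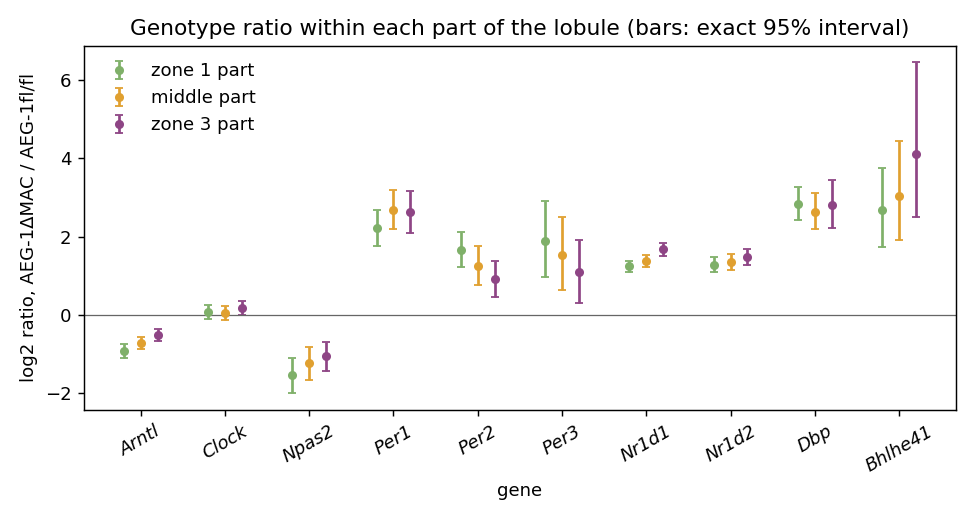
Log2 ratio of AEG-1ΔMAC over AEG-1fl/fl for each clock gene in the zone 1, middle and zone 3 parts, with bars giving the exact 95% interval. Arntl and Npas2 sit below 0 and 7 genes above 0 in every part, while Clock sits at 0.06 to 0.18.

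Within a library, the clock genes differed in how even they were from zone 1 to zone 3. The 95% interval of the zone 3 over zone 1 ratio spanned no difference for Per1, Per3, Nr1d1, Nr1d2 and Bhlhe41 in AEG-1ΔMAC. In AEG-1fl/fl it did so for all of the genes but Nr1d1 and Dbp. Where UMIs are few, such an interval does not show an even level. In AEG-1fl/fl, Bhlhe41 had 11 and 3 UMIs in the zone 1 and zone 3 parts, and Per3 had 13 and 21. Past 1.5-fold with an interval on 1 side of even there were 3 genes in AEG-1ΔMAC, beside 8.55% of all genes whose mean reached 1 CPM. There was 1 such gene in AEG-1fl/fl, beside 7.98%. In AEG-1fl/fl, Per3 at a log2 ratio of 0.71 (-0.35 to 1.83) and Bhlhe41 at -1.86 (-4.34 to 0.07) were past 1.5-fold without such an interval. For the 5 genes at 10 CPM or more, the median size of the log2 ratio between zones was 0.25 and 0.22, beside 0.15 and 0.13 over 6924 genes. Dbp was the gene zoned in both libraries, at 23.7, 16.8 and 12.0 CPM from the zone 1 to the zone 3 part in AEG-1ΔMAC and 3.32, 2.70 and 1.71 CPM in AEG-1fl/fl. Its zone 3 over zone 1 log2 ratios of -0.98 (-1.25 to -0.72) and -0.95 (-1.67 to -0.27) overlapped almost wholly. In AEG-1ΔMAC, Per2 was also lower toward zone 3, at -0.62 (-0.97 to -0.27), a call lost at -0.51 when spots were ranked on landmark genes, and Npas2 higher, at 0.74 (0.25 to 1.25). In AEG-1fl/fl the same ratios were 0.13 (-0.39 to 0.66) and 0.26 (-0.03 to 0.56), and the intervals of the libraries overlapped for both genes. Smaller gradients away from even were those of Arntl at 0.35 (0.16 to 0.54) and Clock at 0.25 (0.07 to 0.43) in AEG-1ΔMAC, and Nr1d1 at -0.52 (-0.71 to -0.33) in AEG-1fl/fl.

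In 10 finer bins along the same ranking, the point levels of the libraries did not overlap for 9 of the 10 genes. Over all genes this held for 9.71% at 10 CPM or more and 7.03% at 1 CPM or more. Counting error was left out of this comparison. In bin 10 the intervals overlapped for Npas2 (5.13 to 10.5 and 10.2 to 17.5 CPM), Per2 (4.76 to 9.94 and 2.20 to 6.24 CPM) and Per3 (0.780 to 3.56 and 0.149 to 2.11 CPM). Bhlhe41 had 1 UMI in that bin of AEG-1fl/fl. Arntl ranged from 22.7 to 36.8 CPM over the AEG-1ΔMAC bins and from 46.2 to 54.4 CPM over the AEG-1fl/fl bins. Nr1d1 ranged from 66.4 to 96.5 CPM and from 21.3 to 40.8 CPM, and Dbp from 11.3 to 32.0 CPM and from 1.20 to 3.71 CPM, with its highest bin at the zone 1 end in both. Nr1d2 ranged from 41.9 to 51.5 CPM and from 14.9 to 23.7 CPM, Per1 from 11.5 to 15.5 CPM and from 1.67 to 4.15 CPM, and Npas2 from 1.82 to 7.46 CPM and from 8.02 to 13.5 CPM. The separation was narrowest for Per3, at 1.81 to 3.63 CPM and 0.377 to 1.78 CPM. Clock overlapped, at 29.5 to 38.6 CPM and 29.3 to 36.3 CPM.

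**Figure D4:**
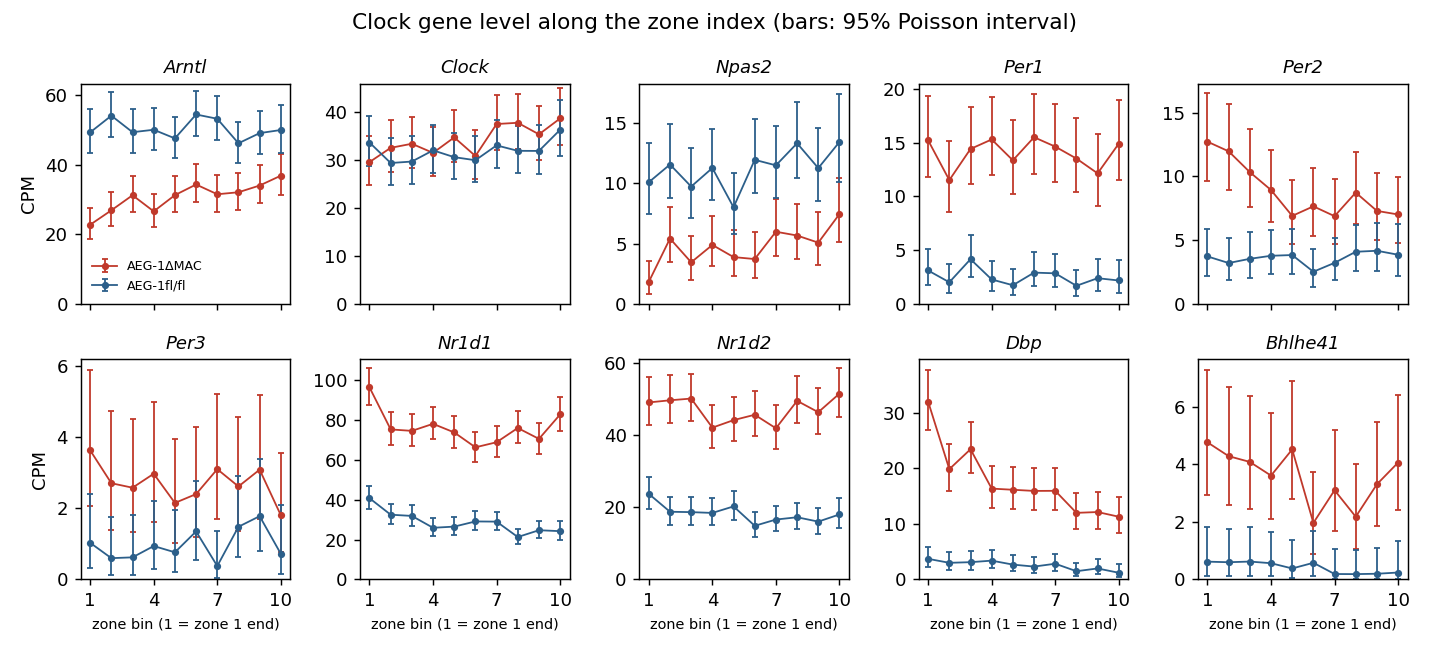
Level of each clock gene in CPM over 10 bins of spots ranked from the zone 1 end (bin 1) to the zone 3 end (bin 10), with 1 line per library and bars giving the 95% Poisson interval. The points of the libraries stay apart for every gene but Clock, while the bars of Npas2, Per2 and Per3 overlap in bin 10. Dbp falls from 32.0 CPM in bin 1 to 11.3 CPM in bin 10 of AEG-1ΔMAC.

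The share of spots with a UMI was compared after thinning each spot to 10000 UMIs, which left 2114 AEG-1ΔMAC and 2434 AEG-1fl/fl spots and left out 26 and 106. Nr1d1 had a UMI in 53.3% (51.1 to 55.4) of AEG-1ΔMAC spots and 24.0% (22.3 to 25.7) of AEG-1fl/fl spots, by exact binomial intervals, and in 77.5% and 41.2% without thinning. Dbp had one in 15.9% (14.4 to 17.5) and 2.05% (1.53 to 2.70), and in 29.3% and 5.08% without thinning. The order was the opposite for Arntl, at 26.6% (24.8 to 28.6) and 40.4% (38.5 to 42.4), and in 47.4% and 60.9% without thinning. Clock had 28.9% (26.9 to 30.8) and 27.9% (26.1 to 29.7), and in 50.4% and 45.8% without thinning. Nr1d2 had a UMI in 37.1% (35.1 to 39.2) and 15.9% (14.4 to 17.4) of spots, against 61.2% and 30.3% without thinning. Both REV-ERB genes thus had the higher share in AEG-1ΔMAC. Per1 had one in 13.5% (12.1 to 15.1) and 2.55% (1.96 to 3.25), against 25.4% and 4.76% without thinning, and Per2 in 8.04% (6.92 to 9.28) and 3.33% (2.65 to 4.12), against 17.0% and 6.73%. Per3 had one in 2.32% (1.72 to 3.05) and 1.03% (0.666 to 1.51), against 5.61% and 1.93% without thinning, and Bhlhe41 in 3.69% (2.93 to 4.58) and 0.411% (0.197 to 0.754), against 7.38% and 0.827%. Npas2 had one in 4.87% (3.99 to 5.88) and 11.2% (9.95 to 12.5), against 9.58% and 19.0% without thinning. The intervals lay apart for 9 of 10 genes (8 at 5000 UMIs, without Per3, and 10 without thinning, with Clock), beside 36.4% of genes at 10 CPM or more and 28% of those at 1 CPM or more.

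At this depth the shares could not show the gradients seen in the summed bins. For all 20 gene and library pairs, the interval held the share that an even level over spots would give, such as 53.1% for Nr1d1 and 16.4% for Dbp in AEG-1ΔMAC, and the variance of counts over their mean was 0.954 to 1.07, Dbp with its gradient included. The zoned gene Slc1a2, a zone 3 landmark, was in 48.1% of AEG-1ΔMAC spots where an even level would give 72.0%. Of 7 genes of retina and brain, 5 had no UMI in either library at this depth while Gnat1 was in 5.72% and 7.85% of spots. The shares of Npas2, Per3 and Bhlhe41 in AEG-1ΔMAC and of Per1, Per2, Per3, Dbp and Bhlhe41 in AEG-1fl/fl lay below those of Gnat1 in the same library, so no difference is read from those shares. The part of such background in the CPM ratios of these genes was not tested.

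**Figure D5:**
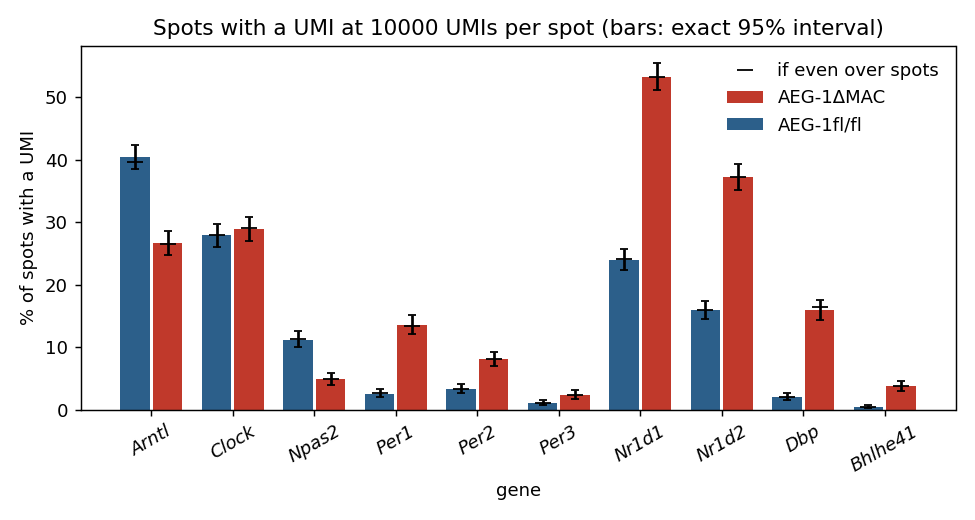
Percent of spots with a UMI of each clock gene after thinning every spot to 10000 UMIs, as bars per library from 0, with exact 95% intervals and a dash at the share an even level would give. Nr1d1 stands at 53.3% against 24.0%, and the dashes fall inside the intervals.

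Spots rich in other cells gave like ratios. In each library the top 10% of spots were taken by the markers of Kupffer cells, cholangiocytes, stellate cells and sinusoidal endothelium in turn. Over these 4 sets of spots, the log2 ratio of Nr1d1 lay between 1.29 and 1.5, Nr1d2 between 1.13 and 1.40, Dbp between 2.05 and 2.69, Per1 between 2.02 and 2.46, Arntl between -0.93 and -0.50, and Npas2 between -1.47 and -1.10. Arntl and Npas2 had intervals below 0 in each set. The higher genes had intervals above 0 in each set, except Per3 in that of Kupffer cells, where it rested on 12 and 5 UMIs. These spots are part of the sections whose ratios were known when the genes were chosen, and no share over all genes was taken. Nothing is read from these intervals. Bhlhe41 had 14 and 0 UMIs in the Kupffer cell set, and Per3 had 13 and 0 in the sinusoidal endothelium set. Kupffer cells are among the myeloid cells that the deletion targets. In the set rich in them, no clock gene had an interval away from even against the other spots of its library. These spots cover other cells too, so the comparison does not give the level in Kupffer cells. In cholangiocyte-rich spots Nr1d1 was higher than in the rest in both libraries, by log2 ratios of 0.35 (0.20 to 0.50) and 0.30 (0.07 to 0.52). Dbp had 0.58 (0.28 to 0.87) and 0.68 (-0.06 to 1.35) there, Nr1d2 had 0.12 (-0.08 to 0.32) and 0.32 (0.04 to 0.59), and Clock had -0.29 (-0.56 to -0.03) and 0.02 (-0.21 to 0.24). Nr1d1 and Dbp also had their highest bin at the zone 1 end in both libraries. The cholangiocyte-rich spots were not matched on zone, so position along the lobule and cell content cannot be told apart. In endothelium-rich spots Dbp had -0.52 (-0.95 to -0.12) and -0.14 (-1.24 to 0.78). Per3, with 0 UMIs there in AEG-1fl/fl, also had an interval below even in that library, with an upper limit of -0.24.

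The genes closest in pattern were found by distance of centred log2 CPM over 6 sums (3 parts of 2 libraries) among 6921 genes, which share those libraries. The clock genes themselves were left out of this search, so distances between them are not given. Nearest to Arntl were Ppp1r3c, Nfil3 and Rnf125, at distances of 0.15 to 0.16, and nearest to Clock were Mtmr9, Smim19 and Wdr48, at 0.03 to 0.04. Npas2 lay nearest to Adrb3, Slc10a2 and Gdf15, at 0.28, 0.31 and 0.39. Among the Per genes, Per1 lay nearest to Orm2 at 0.36, Mup12 at 0.55 and Errfi1 at 0.59, Per2 to Fmo2 at 0.37, Ednrb at 0.37 and Thrsp at 0.42, and Per3 to Arhgef26 at 0.22, Aacs at 0.31 and Tcim at 0.33. Orm2 and Mup12 belong to families of near-identical copies, so their levels are uncertain. Among the genes searched, Zyg11a was nearest to both Nr1d1, at 0.27, and Nr1d2, at 0.13. It was followed by Cd163 at 0.30 and Zbtb16 at 0.31 for Nr1d1, and by Tef at 0.24 and Zfp809 at 0.25 for Nr1d2. Dbp lay nearest to Foxq1 at 0.33, Orm2 at 0.87 and Lpin1 at 0.95, and Bhlhe41 to Mfsd2a at 0.86, Foxq1 at 1.08 and Myc at 1.40.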

How the data were processed

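UMIs per gene and spot were measured by 10x Visium for FFPE tissue, which hybridises probe pairs to a section, in 1 liver section of each genotype. The deposited values are raw counts, made by the authors with Space Ranger 2.0.1 on mm10, and Seurat 4.3.0 is also listed in the submitters' processing notes. Groups came from the genotype labels. Spots with at most 50000 UMIs and 100 to 7000 genes were kept, removing 9 AEG-1ΔMAC and 3 AEG-1fl/fl spots. The clock genes and gene lists were chosen with earlier results of these data known. UMIs were summed over spots, scaled to CPM and compared as log2 ratios with exact conditional binomial 95% intervals, and a gene was counted at 2-fold, a mean of 10 CPM and an interval on 1 side of even. Spots were ranked within each library by zone 3 markers (Cyp2e1, Cyp1a2 and Oat) minus zone 1 markers (Arg1, Cyp2f2, Gls2, Hal, Hsd17b13 and Pck1). The fold between zones was 1.5, with an interval on 1 side of even. Named were all clock genes, the 4 highest and 4 lowest ratios of each further list at 10 CPM, and the 3 genes nearest to each clock gene in pattern, other clock genes left out. Some genes these rules select are not reported here. Python 3.11.15, numpy 2.4.6, scipy 1.17.1 and pandas 2.3.3 were used, with edgeR 4.0.16 in R 4.3.3 for scaling factors alone. The count was tested on simulated data. A total of 10 CPM stood for 455 and 503 UMIs, and a count of 0 allows up to 3 UMIs, or 0.0660 and 0.0596 CPM. Alternatives were other scalings, spots, minimums, folds, zone rankings and depths.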

Additional observations from a re-analysis of the deposited data

How the results depend on the processing

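No paired analysis was possible because each genotype had 1 library. The counts depended on the minimum and the fold. The number of clock genes at least 2-fold higher was 3 at 10 CPM, 7 with no minimum and at 1 CPM (an alternative chosen after seeing the data), and 1 at 50 CPM. The number lower was 0 at 10 CPM, and 1 with no minimum, at 1 CPM (Npas2) and at 1.5-fold (Arntl). Other clock genes apart numbered 2, and 1 at 50 CPM and 5 at 1.5-fold. Output genes apart numbered 1, and 3 with no minimum or at 1 CPM and 4 at 1.5-fold. Clock genes past the zone fold, with an interval on 1 side of even, numbered 3 in AEG-1ΔMAC. They numbered 2 there with the ranking on landmark genes (Per2 lost), 4 with the outer 10% of spots (Arntl gained) and 0 at 2-fold. The outer 10% moved Npas2 there from 0.74 to 2.04 and Per3 from -0.09 to -1.01. Clock genes past the zone fold numbered 1 in AEG-1fl/fl, 2 with the outer 10% of spots, 3 with the mean of spot CPM, where no interval applies, and 0 at 2-fold. The log2 ratio of Clock changed sign, to -0.0185 with TMM factors, -0.0242 with median-of-ratios size factors and -0.0366 once the total left out the 50 genes of highest abundance. These scalings moved the median of all genes by -0.12, -0.13 and -0.14, and moved Arntl, Nr1d1 and Nr1d2 beyond their intervals with the same direction. With all deposited spots, the mean of spot CPM, or spots matched on UMIs, all 10 ratios stayed within their intervals. Depth limits Bhlhe41 and Per3 most, at 21 and 49 UMIs in AEG-1fl/fl.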
